A study of Mus musculus with 6 samples.

Results

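The basement membrane is the thin sheet of matrix under epithelia and around vessels, and 10 of its genes were followed here in the liver of mice with and without a deletion of Ephb2, a receptor tyrosine kinase for ephrins, directed at Pdgfrb-expressing cells. They were chosen by name, as the collagen genes Col4a1, Col4a2, Col4a5, Col15a1 and Col18a1, the laminin genes Lama5, Lamb1 and Lamc1, the nidogen gene Nid1 and the perlecan gene Hspg2. All 10 were found by symbol among the 55416 genes of the count table, and all 10 passed the filter on low counts. None differed between the genotypes past the test over all genes. Col15a1 and Lama5 lay higher in every KO library than in any WT library, with log2 fold changes of 0.32 and 0.38. Such a separation with KO higher was found for 6.21% of all genes tested. The other 8 overlapped between the genotypes.

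Poly(A) RNA of liver tissue from male mice was sequenced, with 3 libraries per genotype. The KO animals were Ephb2flox/flox with Pdgfrb-CreERT2, a tamoxifen-activated recombinase under the promoter of the PDGF receptor beta gene, which is active in hepatic stellate cells, pericytes and other mesenchymal cells. The WT animals were Ephb2flox/flox without Cre. Both received tamoxifen for 5 days at 8 to 10 weeks of age and then a choline-deficient, amino acid-defined diet for 8 weeks, with 45% of calories as fat, 0.1% methionine and 1% cholesterol. Thus both groups carried the floxed allele, the tamoxifen and the diet, and no group carried Cre without the floxed allele. The driver does not act in cells that do not use the Pdgfrb promoter. Since the labels do not say that each library came from a separate animal, the p-values speak only of the spread among these libraries. That spread need not be the spread among animals.

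Basement membranes are built from a laminin network and a type IV collagen network that are tied together by nidogen and by the heparan sulphate proteoglycan perlecan. Collagens XV and XVIII sit at the outer face of the sheet and release the antiangiogenic fragments restin and endostatin from their ends. Liver sinusoids are unusual in having no continuous basement membrane, whereas bile ducts, portal vessels and arteries have one. In scarring liver, basement membrane material is laid down along the sinusoids, which is called capillarisation.

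Levels are given as CPM, read counts scaled to a common library size by TMM. The libraries held 21160690 to 26339251 counts in KO and 21411113 to 23100862 in WT liver. Each of the 10 genes had at least 490 and at most 29549 counts in a library. Liver identity was plain from albumin, at 32565 to 42996 CPM in KO and 38946 to 41820 CPM in WT liver, and the Y-linked gene Ddx3y was at 75.2 to 92.8 CPM in all 6 libraries. Ephb2 itself, counted per gene and not over the floxed part, was at 6.01, 8.87 and 6.95 CPM in KO replicates 1 to 3 and 9.46, 8.28 and 12.4 CPM in WT replicates 1 to 3, which overlap (log2 fold change -0.46, edgeR adjusted p = 0.850; exact two-sided permutation p = 0.2, where 0.1 is the smallest possible). In whole liver, fewer cells of a type and less RNA per cell cannot be told apart. edgeR's quasi-likelihood test with Benjamini-Hochberg adjustment called 0 of 17083 genes (0%), DESeq2 called 7 of 29606 (0.0236%) and limma-voom 0, with 881 genes at an unadjusted p under 0.05 in limma-voom. None of the called genes was among the 10, which all had an adjusted p of 0.997 by DESeq2. An unadjusted p under 0.05 was reached by 886 genes, which is 5.19% of those tested.

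Type IV collagen genes lie in head-to-head pairs, and the first pair is shown because its 2 genes start from the same stretch of DNA. The windows run from 250 bases before to 50 bases after each start site, from RefSeq on GRCm38.p6. In this pair capitals mark the 78 bases that both windows hold, read on opposite strands. Col4a1 is given from chr8:11312777-11313076 on the minus strand and Col4a2 from chr8:11312555-11312854 on the plus strand.
Col4a1: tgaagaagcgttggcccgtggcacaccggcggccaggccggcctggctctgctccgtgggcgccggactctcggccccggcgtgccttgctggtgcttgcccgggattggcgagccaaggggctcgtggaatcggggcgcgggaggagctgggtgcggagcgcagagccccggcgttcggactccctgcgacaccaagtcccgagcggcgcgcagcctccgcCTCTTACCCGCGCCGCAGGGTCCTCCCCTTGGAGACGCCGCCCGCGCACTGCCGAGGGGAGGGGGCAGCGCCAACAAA
Col4a2: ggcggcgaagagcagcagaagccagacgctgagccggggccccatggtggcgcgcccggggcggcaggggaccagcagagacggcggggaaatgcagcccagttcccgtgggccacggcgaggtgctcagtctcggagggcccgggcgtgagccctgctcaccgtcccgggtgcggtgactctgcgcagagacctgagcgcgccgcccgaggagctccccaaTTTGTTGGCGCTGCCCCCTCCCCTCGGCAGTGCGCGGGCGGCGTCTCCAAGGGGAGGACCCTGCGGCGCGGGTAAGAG
The start sites, at 11312826 for Col4a1 and 11312805 for Col4a2, place the first 22 bases of the 2 transcripts opposite each other. The stretch in capitals holds 1 match to the CTC core (CCCTCCCC), a motif described in type IV collagen promoters, and 1 match to the GC box (GGGCGG), which do not overlap. Searched on both strands, the CTC core is found in 10.8% and the GC box in 35.7% of all 32851 promoter windows of this length. The CCAAT box (CCAAT), present in 37.4% of the windows, is not whole in the stretch, although the Col4a1 window holds 1 match outside it and the Col4a2 window 1 match across its edge. The TATA box (TATAAA), present in 13.6% of all windows, is in none of the 10 windows of the 9 genes that have one. Col4a5 starts at position 141475419 of chromosome X, head to head with Col4a6 and 1342 bases away from its start site.

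Lama5 and Col15a1 are shown because they were the genes whose libraries did not overlap. Here capitals mark matches on either strand to the GC box, the CTC core, the CCAAT box or the TATA box. Lama5 is given from chr2:180225810-180226109 on the minus strand and Col15a1 from chr4:47207762-47208061 on the plus strand.
Lama5: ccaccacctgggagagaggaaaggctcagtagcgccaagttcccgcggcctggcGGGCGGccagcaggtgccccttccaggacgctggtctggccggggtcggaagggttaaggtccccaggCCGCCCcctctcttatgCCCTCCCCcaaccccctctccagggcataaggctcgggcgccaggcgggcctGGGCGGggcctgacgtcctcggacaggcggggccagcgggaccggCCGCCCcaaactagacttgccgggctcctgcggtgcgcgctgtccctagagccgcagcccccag
Col15a1: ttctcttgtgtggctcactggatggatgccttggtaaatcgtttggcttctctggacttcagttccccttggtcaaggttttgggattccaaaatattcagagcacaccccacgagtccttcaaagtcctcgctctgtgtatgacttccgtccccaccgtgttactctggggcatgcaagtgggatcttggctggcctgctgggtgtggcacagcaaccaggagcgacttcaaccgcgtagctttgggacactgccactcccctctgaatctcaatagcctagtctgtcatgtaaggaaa
The Lama5 window holds 4 matches to the GC box and 1 to the CTC core, none of which overlap. None of the 4 motifs lies in the Col15a1 window, which is drawn around a RefSeq start site 149 bases before the first base of the gene in GENCODE. Col18a1 has 2 windows, around start sites at 77166530 and 77113705 on chromosome 10, and a count per gene does not tell its long and short transcripts apart. A match to such letters describes the window and does not show that a factor binds there.

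Per kilobase of merged exon, Col18a1 was the most abundant of the 10 genes and took 45.4% of their summed level. The level in CPM per kilobase averaged 149 ± 9.80 in KO and 169 ± 36.2 in WT liver (SD, n = 3 each) for Col18a1. Col4a1 followed at 56.0 ± 1.52 in KO and 61.4 ± 10.6 in WT liver and Col4a2 at 37.4 ± 4.86 in KO and 36.0 ± 6.95 in WT liver. Next came Nid1, with a mean of 28.6 over the 6 libraries, Hspg2 with 21.5, Col15a1 with 13.9 and Lamc1 with 11.9 CPM per kilobase. Lamb1, Col4a5 and Lama5 were lowest, at 6.66, 6.14 and 5.84 CPM per kilobase. Most steps in this order held in every library, but Col4a2 lay above Nid1, Col15a1 above Lamc1 and Lamb1 above Col4a5 in 5 of 6. Col4a5 and Lama5 could not be ordered, since Col4a5 was the higher in 3 libraries and the lower in 3. The order was the same when the longest transcript was used as length, although the level of Lamb1 then became 11.7 in KO and 11.1 in WT liver, against 6.85 in KO and 6.47 in WT liver with merged exons.

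**Figure D1:**
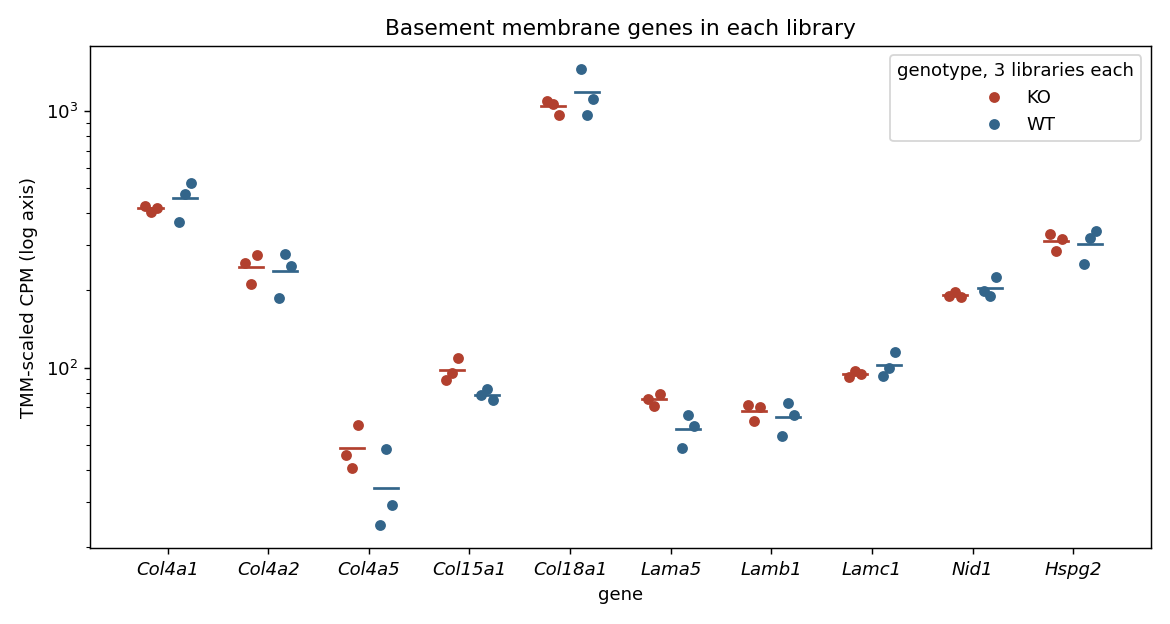
TMM-scaled CPM (log axis) of each basement membrane gene, with 1 point per library and a line at the mean of 3, KO left of WT. Col15a1 and Lama5 are the 2 genes whose KO points all lie above their WT points.

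Col15a1, which encodes the core chain of type XV collagen of vessel and perineurial basement membranes, was at 89.3, 95.1 and 109 CPM in KO replicates 1 to 3 and 78.4, 82.2 and 74.6 CPM in WT replicates 1 to 3. Every KO library lay above every WT library, with KO replicate 3 highest. Its log2 fold change was 0.32 (SE 0.10, 95% interval 0.09 to 0.55), and the difference did not pass the test over all genes (unadjusted p = 0.0128, edgeR adjusted p = 0.850). The gene spans 47208161 to 47313167 of chromosome 4 (GRCm38, plus strand), with 40 exons in the transcript that has most. Lama5, the laminin alpha chain typical of mature epithelial and vascular basement membranes, was at 75.6, 70.9 and 79.1 CPM in KO replicates 1 to 3 and 48.6, 65.5 and 59.3 CPM in WT replicates 1 to 3. Here too the genotypes did not overlap, and WT replicate 1 was lowest. The log2 fold change of Lama5 was 0.38 (SE 0.12, 95% interval 0.11 to 0.65), which did not pass either (unadjusted p = 0.0127, edgeR adjusted p = 0.850). Lama5 spans 180176373 to 180225859 of chromosome 2 (GRCm38, minus strand), with 79 exons counted in the same way.

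These 2 were the genes of the 10 with an unadjusted p under 0.05, both higher in KO liver, and a p that small with KO higher was found for 3.08% of all genes tested. Complete separation of the genotypes with KO higher was likewise found for 2 of the 10, against 6.21% of all genes, and with KO lower for 0 of the 10, against 4.9%. Among the 10, 6 log2 fold changes were positive and 4 negative, while 49% of all genes were positive. The median of the 10 was 0.04, beside a median of -0.0048 over all genes tested. With 1 library left out, Lama5 ranged from 0.26 without WT replicate 1 to 0.48 without WT replicate 2, and Col15a1 from 0.23 without KO replicate 3 to 0.38 without KO replicate 1. DESeq2 gave 3 of the 10 an unadjusted p under 0.05, namely Lama5, Col15a1 and Col4a5. The summed level of 10 bile duct markers also separated. It was 1272, 1623 and 1547 CPM in KO replicates 1 to 3 and 921, 1241 and 1163 CPM in WT replicates 1 to 3. Spp1 weighs most in this sum. By itself Spp1 ran from 803 to 1166 CPM in KO and from 613 to 834 CPM in WT liver, which overlap. Singly, 4 of the 10 markers lay higher in every KO library, against 6.21% of all genes. The part of these markers in the values of Lama5 and Col15a1 was not tested.

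**Figure D2:**
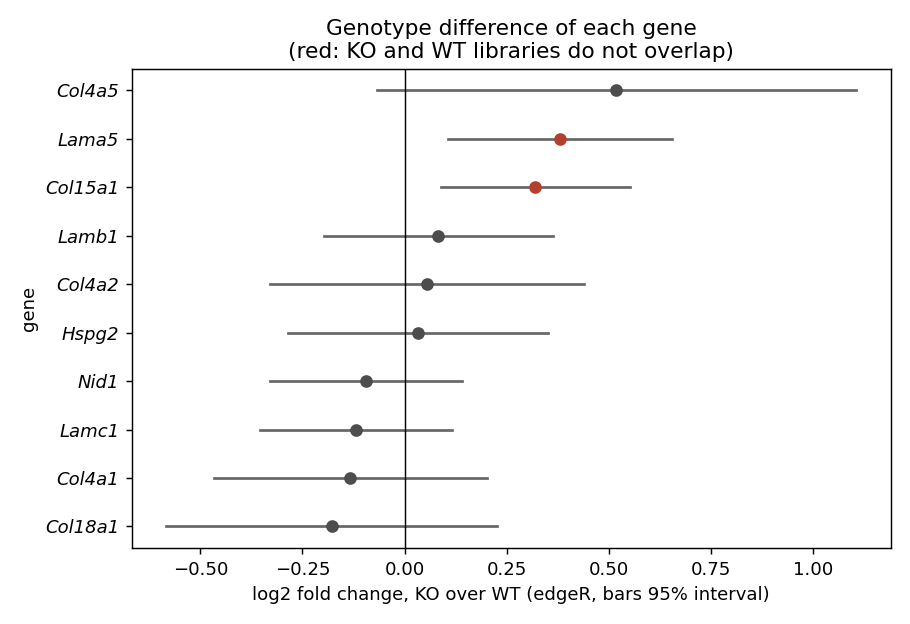
Log2 fold change of each gene, KO over WT, from edgeR's fit over all genes, with bars for the 95% interval and red points where the libraries of the genotypes do not overlap. The intervals of Lama5 and Col15a1 lie above 0 and those of the other 8 genes include it.

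Col4a1 and Col4a2, whose chains form the common type IV network of nearly all basement membranes, did not separate by genotype. Col4a1 was at 427, 405 and 421 CPM in KO replicates 1 to 3 and 371, 477 and 526 CPM in WT replicates 1 to 3. The 3 KO libraries lay close together, inside the range of the WT libraries (log2 fold change -0.13, 95% interval -0.47 to 0.20, edgeR adjusted p = 0.876). Col4a2 was at 257, 212 and 274 CPM in KO replicates 1 to 3 and 187, 277 and 250 CPM in WT replicates 1 to 3. WT replicate 1 was the lowest library for both genes, and the log2 fold change of Col4a2 was 0.05 (95% interval -0.33 to 0.44, edgeR adjusted p = 0.954). Leaving out WT replicate 1 turned its sign, to -0.0980, as did leaving out KO replicate 3, to -0.0256.

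Col4a5 encodes an X-linked chain that joins either Col4a3 and Col4a4 products or Col4a6 products in specialised basement membranes, and is mutated in Alport syndrome. Its level was 45.5, 40.8 and 59.6 CPM in KO replicates 1 to 3 and 24.3, 48.3 and 29.0 CPM in WT replicates 1 to 3. WT replicate 2 lay among the KO libraries and the other WT libraries lay below them. The log2 fold change was 0.52 (SE 0.25, 95% interval -0.07 to 1.10), the widest interval of the 10 genes (unadjusted p = 0.0759, edgeR adjusted p = 0.850). This value depended on single libraries, as it was 0.87 without WT replicate 2 (unadjusted p = 0.00183, edgeR adjusted p = 0.297), 0.32 without WT replicate 1 and 0.35 without KO replicate 3. Col4a5 spans positions 141475385 to 141689234 of chromosome X on the plus strand.

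Col18a1, the source of endostatin, was the one gene of the 10 with its highest value in WT replicate 1. It was at 1099, 1071 and 968 CPM in KO replicates 1 to 3 and 1463, 966 and 1120 CPM in WT replicates 1 to 3, a log2 fold change of -0.18 (95% interval -0.58 to 0.23, edgeR adjusted p = 0.870). Without WT replicate 1 it was -0.0035 on the log2 scale, and without WT replicate 2 it was -0.31. The difference was thus within the spread of the WT libraries.

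Lamb1 and Lamc1, the beta and gamma chains that pair with many laminin alpha chains, did not separate. Lamb1 was at 71.4, 62.1 and 70.2 CPM in KO replicates 1 to 3 and 54.1, 72.6 and 65.6 CPM in WT replicates 1 to 3. KO and WT libraries were interleaved (log2 fold change 0.08, 95% interval -0.20 to 0.36, edgeR adjusted p = 0.901). Lamc1, the chain that binds nidogen, was at 91.9, 97.2 and 94.1 CPM in KO replicates 1 to 3 and 92.4, 99.5 and 116 CPM in WT replicates 1 to 3. The KO libraries and 2 of the WT libraries lay close together, with WT replicate 3 above them (log2 fold change -0.12, 95% interval -0.35 to 0.12, edgeR adjusted p = 0.858). The sign for Lamb1 turned to -0.0325 without WT replicate 1.

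The linkers between the networks did not separate either. Nid1, nidogen 1, was at 190, 198 and 188 CPM in KO replicates 1 to 3 and 199, 190 and 226 CPM in WT replicates 1 to 3, with WT replicate 3 alone above the rest (log2 fold change -0.09, 95% interval -0.33 to 0.14, edgeR adjusted p = 0.875). Hspg2, perlecan, which binds growth factors through its heparan sulphate chains, was at 333, 285 and 316 CPM in KO replicates 1 to 3 and 254, 320 and 341 CPM in WT replicates 1 to 3. WT replicates 1 and 3 held its lowest and highest values (log2 fold change 0.03, 95% interval -0.28 to 0.35, edgeR adjusted p = 0.968). Hspg2 turned to -0.0905 without WT replicate 1 and -0.0202 without KO replicate 1. The intervals of Lamb1 and Hspg2 reach up to 0.36 and 0.35, near the 0.38 of Lama5. Those of Nid1 and Lamc1 reach about that size only downwards, to -0.33 and -0.35. A p that misses the threshold thus does not show that the genotypes were equal for these genes.

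Ratios of counts within a library are free of scaling between libraries, and 3 were compared. The ratio of Col4a1 to Col4a2, the pair with the shared start region, was 1.66, 1.92 and 1.54 in KO replicates 1 to 3 and 1.98, 1.72 and 2.11 in WT replicates 1 to 3. On the log2 scale it averaged 0.76 ± 0.16 in KO and 0.95 ± 0.15 in WT liver (SD, n = 3 each), a difference of -0.18 (two-sided exact permutation p = 0.2). Lamb1 to Lamc1 stood at 0.777, 0.640 and 0.746 in KO replicates 1 to 3 and 0.586, 0.730 and 0.568 in WT replicates 1 to 3. All KO values but that of replicate 2 lay above all WT values (log2 difference 0.20, two-sided exact permutation p = 0.2). For Col15a1 to Col18a1 the ratio was 0.0813, 0.0889 and 0.113 in KO replicates 1 to 3 and 0.0536, 0.0852 and 0.0666 in WT replicates 1 to 3 (log2 difference 0.47, two-sided exact permutation p = 0.2). All 3 ratios overlapped between the genotypes, each p was 0.2 after Benjamini-Hochberg adjustment, and 3 against 3 libraries allow no p below 0.1. These ratios are not divided by gene length and therefore do not compare the levels of the 2 genes.

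**Figure D3:**
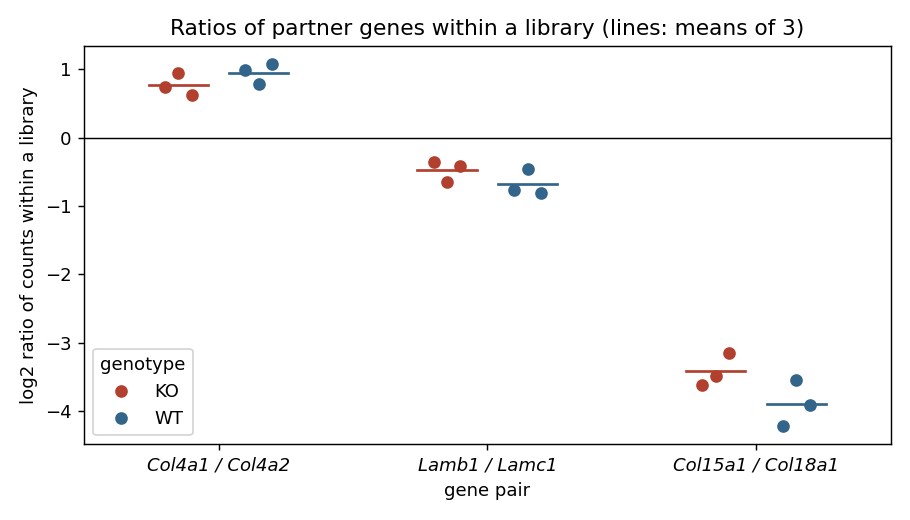
Log2 ratio of the counts of 2 partner genes within each library, with 1 point per library and a line at the mean of 3, KO left of WT. Points of the genotypes overlap for all 3 pairs, and a ratio of Col4a1 to Col4a2 lay between 1.54 and 2.11 in every library.

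Other genes of the basement membrane were read from lists chosen for their role. The 3 other type IV collagens all had positive log2 fold changes (0.68 to 0.88), and 0 of 3 passed edgeR's test, with 1 at an unadjusted p under 0.05 and KO higher, against 3.08% of all genes. Col4a6, the gene head to head with Col4a5, was at 8.97, 8.76 and 12.3 CPM in KO replicates 1 to 3 and 5.65, 8.57 and 4.54 CPM in WT replicates 1 to 3. Its libraries did not overlap, as for 6.21% of all genes with KO higher, and WT replicate 2 came close to KO replicate 2 (log2 fold change 0.68, SE 0.25, edgeR adjusted p = 0.850). Col4a3 was at 8.50, 5.57 and 12.7 CPM in KO replicates 1 to 3 and 3.07, 9.12 and 2.92 CPM in WT replicates 1 to 3, with WT replicate 2 inside the KO range (log2 fold change 0.81, edgeR adjusted p = 0.850). Col4a4, named after its values were seen, was at 19.0, 7.96 and 26.2 CPM in KO replicates 1 to 3 and 5.55, 19.5 and 3.63 CPM in WT replicates 1 to 3. KO replicates 1 and 3 and WT replicate 2 were thus the high libraries for Col4a3 and Col4a4, irrespective of genotype. Among the 10 main genes, these 3 libraries were also the highest for Col4a2, Col4a5 and Lamb1, but not for the others. The share of all genes that split in this way was not counted. Taken over the whole count table, these 3 libraries were also the most alike. Chi-square per degree of freedom was 12.1 between KO replicates 1 and 3, and 10.4 and 11.7 between each of them and WT replicate 2. It was at least 30.6 for every other pair of libraries. The same 3 libraries held the least acute phase RNA, summed over 8 acute phase genes. Sums were 7838, 23005 and 6968 CPM in KO replicates 1 to 3 and 15211, 6778 and 18625 CPM in WT replicates 1 to 3. Whether this had a part in the values of these collagens and of Lamb1 was not tested.

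Among 7 other laminin chains, 6 had a positive log2 fold change and the median was 0.28, while 0 passed edgeR's test over all genes. Unadjusted, 2 were under 0.05 with KO higher and 1 with KO lower, against 3.08% and 2.1% of all genes. Lamc3, a gamma chain found in brain, retina and reproductive tract, had the smallest p, at 77.4, 79.9 and 92.4 CPM in KO replicates 1 to 3 and 42.2, 63.4 and 60.9 CPM in WT replicates 1 to 3. Each KO library was above each WT library (log2 fold change 0.58, SE 0.16, unadjusted p = 0.00614, edgeR adjusted p = 0.850). Lama1, the laminin alpha chain of the early embryo, lay lower in KO liver without overlap, at 10.7, 7.89 and 5.57 CPM in KO replicates 1 to 3 and 13.7, 11.5 and 17.98 CPM in WT replicates 1 to 3 (log2 fold change -0.84, SE 0.25, edgeR adjusted p = 0.850). Lama3, an alpha chain of epithelial laminins, was named after its values were seen, at 6.80, 6.56 and 6.82 CPM in KO replicates 1 to 3 and 4.41, 5.42 and 5.17 CPM in WT replicates 1 to 3. Its libraries did not overlap between the genotypes (log2 fold change 0.43, edgeR adjusted p = 0.850). Of the 7 chains, 2 separated with KO higher and 1 with KO lower, against 6.21% and 4.9% of all genes.

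**Figure D4:**
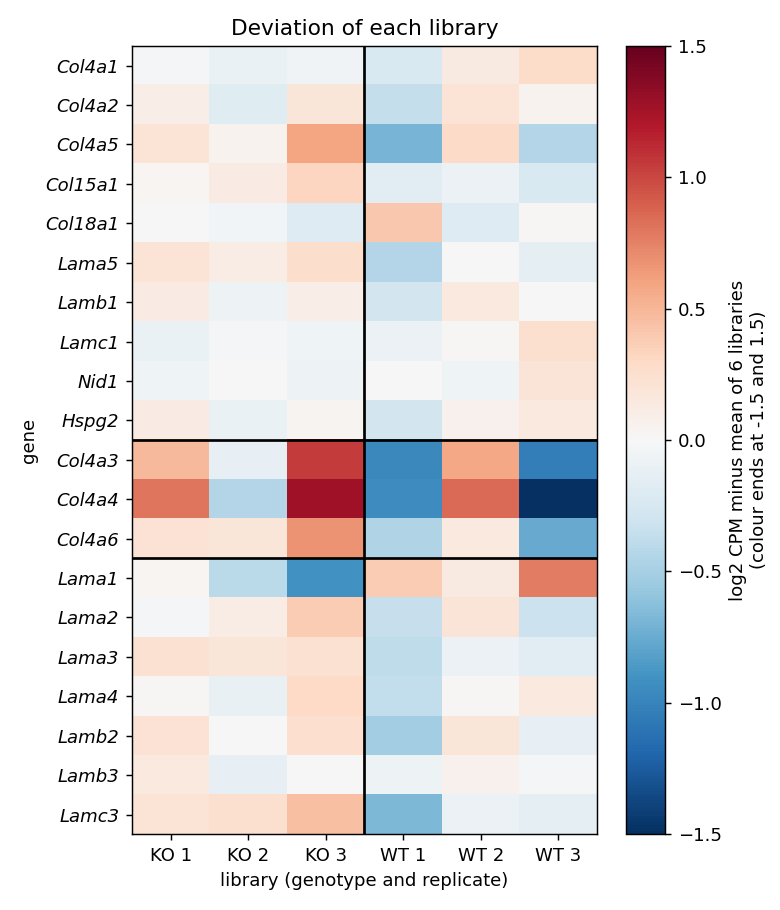
Log2 CPM of each type IV collagen, laminin and other main gene in each library (KO replicates left, WT replicates right) minus the mean of the 6 libraries. WT replicate 1 was the lowest library for 11 and KO replicate 3 the highest for 11 of the 20 genes.

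Matrix components outside these families gave 14 positive and 4 negative values among the 18 of 20 listed genes past the filter, with a median of 0.23, while 49% of all genes were positive. No gene of this list was called by edgeR, and 5 had an unadjusted p under 0.05, all with KO higher, against 3.08% of all genes. Smoc2, a SPARC-related calcium-binding protein of basement membranes, was at 54.0, 77.0 and 77.3 CPM in KO replicates 1 to 3 and 48.0, 53.6 and 48.3 CPM in WT replicates 1 to 3 (log2 fold change 0.48, edgeR adjusted p = 0.850). KO replicate 1 exceeded the highest WT library by less than the WT libraries differed among themselves. Fbln1, fibulin 1, stood at 0.62 on the same scale with overlapping libraries (edgeR adjusted p = 0.850). Agrn (agrin), Egflam (pikachurin) and Thsd4, a microfibril-associated protein, were named after their values were seen and were the other 3, at log2 fold changes of 0.24, 0.52 and 0.30.

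Receptors for the basement membrane, which include integrins, dystroglycan and syndecans, were centred near 0, with 9 of 14 positive and a median of 0.07. None had an unadjusted p under 0.05, and 0 passed edgeR's test. The smallest p among them belonged to Sdc4, syndecan 4, at -0.34 (edgeR adjusted p = 0.850) and Bcam, a receptor of laminin alpha 5, at 0.24 (edgeR adjusted p = 0.850). Bcam averaged 24.1 ± 0.82 CPM in KO and 20.5 ± 3.1 CPM in WT liver (SD, n = 3 each), and Sdc4 312 ± 27.9 CPM in KO and 396 ± 70.6 CPM in WT liver. Among enzymes and chaperones that modify and fold collagen, 9 of 13 were negative and the median was -0.15, with none under an unadjusted p of 0.05. Plod2, a lysyl hydroxylase, at 0.27, and P4ha2, a prolyl hydroxylase subunit, at -0.32, had the smallest p there (edgeR adjusted p = 0.850 each). Proteases that cut basement membrane components were 5 positive and 5 negative, with a median of -0.02 and none under an unadjusted p of 0.05. Htra1, a secreted serine protease, was at 0.74 and Mmp2, the gelatinase A that cleaves type IV collagen, at 0.49 (edgeR adjusted p = 0.850 each). For comparison, 7 of 8 fibrillar collagens past the filter were positive, with a median of 0.19, 1 at an unadjusted p under 0.05 with KO higher and 0 called by edgeR. Col27a1 was at 0.58 and Col11a2 at -0.35 (edgeR adjusted p = 0.850 each). The list medians moved with single libraries. That of the other type IV collagens ranged from 0.48 without KO replicate 3 to 1.57 without WT replicate 2. The other laminin chains ranged from 0.11 without WT replicate 1 to 0.46 without WT replicate 2, the other matrix components from 0.11 to 0.28 and the fibrillar collagens from 0.053 to 0.43 with the same libraries left out. Without KO replicate 3 the fibrillar median was 0.072, and without WT replicate 3 it was 0.11.

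**Figure D5:**
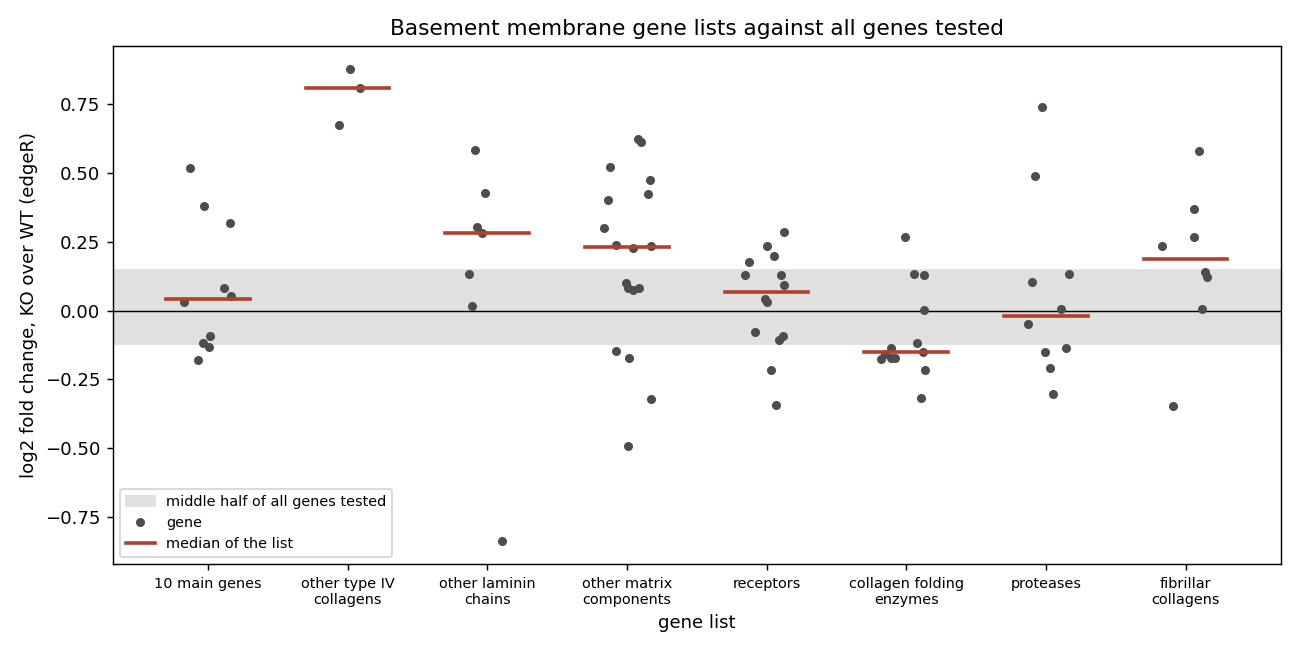
Log2 fold change, KO over WT, of each gene past the filter in each list, with a red line at the list's median and a grey band from the lower to the upper quartile of all genes tested (-0.12 to 0.15). The medians of the 10 main genes, the receptors and the proteases lie inside the band, and those of the other type IV collagens (0.81), the other laminin chains (0.28), the other matrix components (0.23) and the fibrillar collagens (0.19) lie above it, with that of the folding enzymes (-0.15) below. Without WT replicate 1, the medians of the laminin chains, the other matrix components and the fibrillar collagens are 0.11, 0.11 and 0.053.

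The extremes of these values were spread unevenly over the libraries. WT replicate 1 was the lowest library for 6 of the 10 main genes, and for 17.4% of all genes tested. WT replicate 3 was the highest for 4 of the 10, and for 24% of all genes, and KO replicate 3 for 3 of the 10, and for 19.4% of all genes. The highest over the lowest library was 1.44-fold for the median main gene and 1.46-fold for the median gene tested. Summed over the 10 genes, the level was 2681, 2537 and 2580 CPM in KO replicates 1 to 3 and 2772, 2599 and 2807 CPM in WT replicates 1 to 3, and Col18a1 weighs most in this sum.

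Marker genes of liver cell types were measured in the same libraries, and none of them passed edgeR's test. Of the 10 bile duct markers, 9 had a positive log2 fold change, against 49% of all genes, and 5 an unadjusted p under 0.05 with KO higher, against 3.08% of all genes. WT replicate 1 held their lowest sum. With KO lower, against 2.1% of all genes, 2 Kupffer, 1 sinusoidal endothelial, 1 quiescent stellate and 1 myofibroblast marker were under 0.05, and with KO higher 1 myofibroblast and 1 portal fibroblast or mesothelial marker. Spp1, osteopontin, and Pkhd1, the fibrocystin gene of bile duct cilia, were the most abundant of the 10 bile duct markers. Scar-associated macrophages also make Spp1. Log2 fold changes were 0.38 for Spp1 and 0.59 for Pkhd1 (edgeR adjusted p = 0.850 each). Sinusoidal endothelial markers summed to 797 to 1009 CPM in KO and 901 to 1312 CPM in WT liver, with 9 of 10 negative. Vascular endothelial markers summed to 429 to 486 CPM in KO and 444 to 613 CPM in WT liver, with 5 of 12 positive. Quiescent stellate markers stood at 909 to 1063 CPM in KO and 1017 to 1181 CPM in WT liver, with 8 of 10 negative. Myofibroblast markers, of which Cthrc1 did not pass the filter, stood at 350 to 388 CPM in KO and 284 to 394 CPM in WT liver, with 4 of 9 positive. Kupffer cell markers summed to 952 to 1320 CPM in KO and 1015 to 2194 CPM in WT liver, with 0 of 10 positive. Neutrophil markers summed to 17.1 to 83.2 CPM in KO and 12.2 to 144 CPM in WT liver, with 0 of 7 positive. WT replicate 3 was the highest library for every marker of these 2 lists past the filter, and for 24% of all genes. In WT replicates 1 and 2 the Kupffer sum was 1334 and 1015 CPM. Portal fibroblast and mesothelial markers, a sum set mainly by Krt8, which hepatocytes express as well, stood at 652 to 763 CPM in KO and 664 to 763 CPM in WT liver. Of the 9 past the filter in that list, 6 were positive. Hepatocyte markers summed to 43796 to 59621 CPM in KO and 51397 to 57658 CPM in WT liver, with 1 of 10 positive. Albumin weighs most in this sum. The 3 smooth muscle markers past the filter, which Cnn1, Actg2 and Myocd did not pass, were 1 positive and 2 negative. They summed to 13.6 to 16.1 CPM in KO and 13.2 to 13.6 CPM in WT liver, so the groups all but touched. Synpo2 was the positive one, at a log2 fold change of 0.45, and Myh11 stood at -0.13. Sums of the bile duct and smooth muscle markers did not overlap between the genotypes, those of the other 9 lists did, and no marker was at 0 in all libraries. The part of these cell types in the values of the collagens and laminins was not tested.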

How the data were processed

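Raw read counts for each Ensembl gene are what the authors deposited, in 1 column per library without pooling or normalization. Per the submitters' processing notes, which assign no role to any of them, STAR 2.7.6a, featureCounts 1.6.3, DESeq2 1.30.0, mm10 and GRCm38 were involved. RNA was enriched for poly(A) and made into directional libraries, per the labels' protocols. No source used here gives the annotation release or strand setting. Symbols and positions came from GENCODE M21 on GRCm38, which matched 52135 of 55416 gene IDs. The 3281 unmatched IDs held 0.817 to 1.13% of a library's counts, and the authors' gene bounds may differ from those of M21. Exons of Col4a1, Col4a2, Col15a1 and Nid1 overlap antisense genes over at most 2.06% of their length.

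The main test was edgeR 4.0.16 (glmQLFit, glmQLFTest; limma 3.58.1, R 4.3.3) on genes kept by filterByExpr at a minimum count of 10 and a total of 15. TMM scaled the libraries, the model held genotype alone, and Benjamini-Hochberg adjustment ran over 17083 genes with a threshold of 0.05. Levels are TMM-scaled CPM, divided by merged exon length where given per kilobase. Ratios were taken on counts with a prior count of 2. Intervals are 95% intervals. Libraries differed beyond sampling noise (chi-square per degree of freedom 10.4 to 69.6). The lowest values, 10.4 to 12.1, belonged to the pairs among KO replicates 1 and 3 and WT replicate 2. Every other pair was at 30.6 or more. Alternatives were other scalings, filters and tools (DESeq2 1.42.0, limma-voom), the replicate number as a block, and each library left out.

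The 10 genes and all lists were chosen with earlier results of these data known. Named were the 10 genes, Ephb2, the 2 genes with the smallest p in each pathway list and in the fibrillar collagens, and the 2 most abundant genes of each marker list where that list is described. Ddx3y and the genes said to be so were chosen after their values were seen. A gene of the laminin list is not reported here and was left out of that list's counts.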

Additional observations from a re-analysis of the deposited data

How the results depend on the processing

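None of the 10 genes was called under any of 11 other settings or with any 1 library left out, and 165 of 170 recomputed values of the 10 genes kept their direction. The 5 that reversed came from leaving out a library, over which Col4a2 ranged from -0.0980 to 0.18 on the log2 scale, Lamb1 from -0.0325 to 0.18 and Hspg2 from -0.0905 to 0.12, and the cause was not tested. The signs turned without KO replicate 3 (-0.0256) or WT replicate 1 for Col4a2, WT replicate 1 for Lamb1, and KO replicate 1 (-0.0202) or WT replicate 1 for Hspg2. The median log2 fold change of the 10 genes ran from -0.06 to 0.12 over the libraries left out. Over all genes, edgeR called 3 without a count filter and DESeq2 called 7. With a library left out edgeR called 0 to 2, the 2 without WT replicate 3. Genes at an unadjusted p under 0.05 numbered 886, 1390 without a filter, 1858 without WT replicate 2 and 452 without KO replicate 3. Among the 10 genes the count was 2, and it became 3 without a filter or without WT replicate 2 and 1 without KO replicate 3. Col15a1 was the gene lost with KO replicate 3 (edgeR unadjusted p = 0.0541), and Col4a5 the gene gained without a filter (edgeR unadjusted p = 0.0197). Scaling by library size alone raised the median of all genes to 0.07 and Lama5 and Col15a1 to 0.46 and 0.40.

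Replicate numbers are shared by the genotypes. The correlations of same-numbered libraries, after removing genotype means, were -0.03, -0.44 and -0.31 for numbers 1, 2 and 3. None was positive, but 3 libraries per genotype are too few to show whether the numbers pair the samples. With the replicate number as a block, edgeR called 0 genes and 537 had an unadjusted p under 0.05. Under the block Lama5 stood at 0.39, Col15a1 at 0.32 and Col4a5 at 0.57 (edgeR adjusted p = 0.964 each). For the 3 ratios the block leaves the difference as it is by construction (exact sign-flip p = 0.5, 0.5 and 0.25, where 0.25 is the smallest possible). Each of the 10 genes had 490 or more counts in every library.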
